A study of Mus musculus with 8 samples.

Results

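Blood vessels of the brain are wrapped by mural cells. Pericytes sit on capillaries within the basement membrane and are recruited by platelet-derived growth factor that endothelial cells release and that the receptor encoded by Pdgfrb binds. Smooth muscle cells surround arteries and arterioles, and contract when calcium lets myosin pull on smooth muscle actin. Perivascular fibroblasts lie outside the muscle layer of larger vessels and in the meninges, and secrete collagens and proteoglycans. The genes described here are 33 genes of these cells among 28732 genes in the count table of cerebral cortex RNA. They were taken from a fixed list of gene symbols, each of which matched a single gene of the table, and 28 of the 33 passed the expression filter.

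Cortex of mice with an inducible endothelial deletion of Tak1 was set against that of littermates that keep it. TAK1 is a kinase of inflammatory and growth factor signalling, and its gene is also named Map3k7. Knockouts carried Cdh5-CreER and floxed Tak1 alleles (Cdh5-CreER::Tak1fl/fl), and controls carried the floxed alleles alone (Tak1fl/fl). All mice were given tamoxifen, which activates CreER, and were at postnatal day 90 per the sample labels or 12 to 14 weeks old per the series text. There were 4 control and 4 knockout libraries, named here as in the count table (controls 1 to 4, knockouts 2 to 5). The Cdh5 promoter that drives the recombinase is active in endothelial cells, so the 33 genes belong mainly to neighbouring cells and not to the cells in which Tak1 is deleted. Each library is whole tissue, in which fewer cells of a type and less RNA per cell cannot be told apart.

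Libraries held 13483354 to 17728963 counts. The most abundant gene took 17.3% to 25.2% of each library. Neuron, astrocyte and oligodendrocyte markers were abundant in every library, as the cortex label has it, but choroid plexus markers were not evenly spread. The 7 choroid plexus and ependyma markers summed to 19.04 to 24.2 CPM (read counts scaled to library size and composition) in controls 1 to 3. Their sum was 190 CPM in control 4 and 377 to 538 CPM in the knockouts. Most of the sum in control 4 and the knockouts was the single marker Ttr. It stood at 174 CPM in control 4 and at 351 to 513 CPM in the knockouts. In controls 1 to 3 it stood at 5.74 to 9.35 CPM. Map3k7 stood at 40.02 ± 2.89 CPM in the controls and 38.8 ± 3.16 CPM in the knockouts (SD, n = 4 each), a level over the whole gene and over all cortical cells that does not check the deletion. The edgeR quasi-likelihood test covered 15564 genes, and 6.43% of them had an adjusted p under 0.05. Those higher in knockouts made up 3.44% (535 genes) and those lower 2.99% (466 genes), and under upper-quartile scaling the split was 683 higher and 394 lower.

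Among the 28 tested genes 2 passed as higher and 2 as lower in knockouts, and 24 did not pass. The transporter gene Slc6a20a and the matrix gene Mgp rose. Myl9, for a myosin light chain, and the signalling regulator Rgs4 fell. The 4 calls are 4 of 28, with the 6.43% of all tested genes as background. The median log2 fold change (knockout over control) was -0.25 over the 28 genes and -0.0021 over all tested genes. It was negative for 18 of the 28, against 50.2% of all tested genes.

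**Figure D1:**
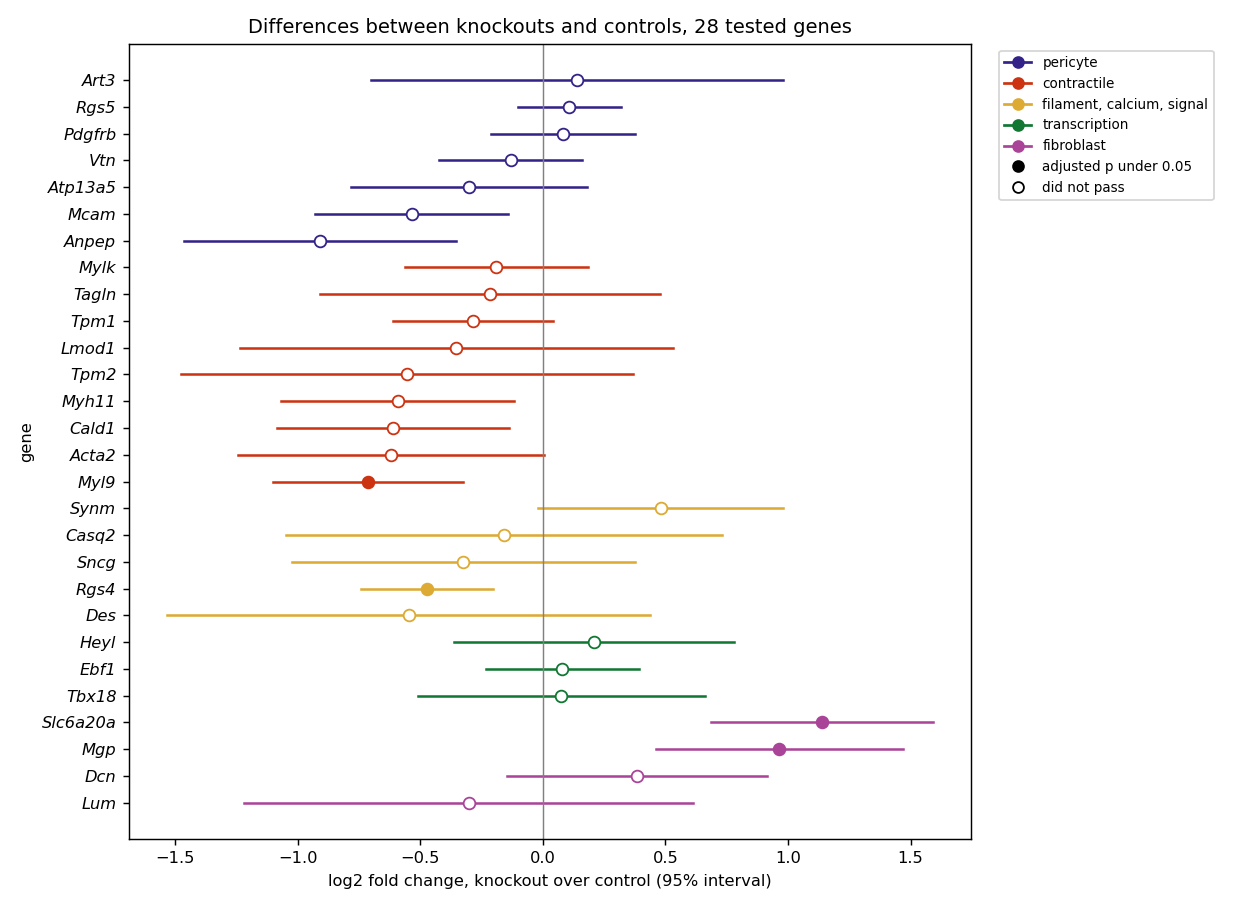
Log2 fold change of knockouts over controls (x axis, with its 95% interval) for the 28 tested genes (y axis), coloured by role. Filled points passed an adjusted p of 0.05. All 9 tested contractile genes lie left of 0 with Myl9 filled, and Slc6a20a and Mgp are the filled points on the right.

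To show regulatory sequence next to some of these genes, the 250 bases upstream of the RefSeq transcription start (GRCm38.p6) are printed. They are given for Myl9, Acta2, Rgs4 and Slc6a20a, 5′ to 3′ on the strand of the gene. Of these Acta2 did not pass, and Mgp, which passed, is not shown. Capitals mark a CArG box in Myl9, a match to CATTCC on the opposite strand in Acta2 and TATAAA in Rgs4. The CArG box binds serum response factor, which drives smooth muscle genes, CATTCC is bound by TEAD factors, and TATAAA is the core of a TATA box. Slc6a20a, the gene with the largest rise, is shown without capitals.
Myl9, chr2:156775214-156775463, plus strand: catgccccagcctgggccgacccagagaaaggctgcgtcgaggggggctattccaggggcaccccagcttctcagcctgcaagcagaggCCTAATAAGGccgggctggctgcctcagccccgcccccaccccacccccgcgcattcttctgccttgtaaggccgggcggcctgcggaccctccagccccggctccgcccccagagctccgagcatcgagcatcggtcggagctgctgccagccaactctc
Acta2, chr19:34255374-34255623, minus strand: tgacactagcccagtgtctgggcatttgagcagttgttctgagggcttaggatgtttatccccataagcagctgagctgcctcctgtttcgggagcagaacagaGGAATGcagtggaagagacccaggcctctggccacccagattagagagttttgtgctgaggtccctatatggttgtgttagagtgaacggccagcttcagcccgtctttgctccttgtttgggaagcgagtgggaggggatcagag
Rgs4, chr1:169747643-169747892, minus strand: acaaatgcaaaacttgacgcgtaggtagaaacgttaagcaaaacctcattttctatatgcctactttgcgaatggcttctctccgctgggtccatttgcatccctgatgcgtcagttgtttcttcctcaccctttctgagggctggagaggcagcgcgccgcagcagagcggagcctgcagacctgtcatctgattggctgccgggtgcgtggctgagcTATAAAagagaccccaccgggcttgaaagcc
Slc6a20a, chr9:123678833-123679082, minus strand: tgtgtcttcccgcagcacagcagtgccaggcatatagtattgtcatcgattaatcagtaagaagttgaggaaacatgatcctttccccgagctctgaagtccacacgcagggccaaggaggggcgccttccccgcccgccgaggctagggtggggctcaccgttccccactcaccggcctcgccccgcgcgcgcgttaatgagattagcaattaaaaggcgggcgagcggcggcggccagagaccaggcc

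RefSeq windows, each from 250 bases before to 50 after a start, were found for 24 of the 33 genes. Both strands were searched. The CArG box was searched in its strict form only (10 bases: CC, then only A or T, then GG). It stood in 1 of these 24 genes, Myl9, and in 1.63% of all 32851 windows. In Myl9 its first base lies 161 bases upstream of the start. Near matches with 1 other base were not counted, such as ccctatatgg and ccttgtttgg in Acta2 and ccttgtaagg in Myl9. CATTCC stood in 10 of the 28 windows of these genes and in 14.7% of all windows. It was found in 9 of the 24 genes, the contractile genes Acta2, Cald1, Lmod1, Mustn1, Mylk and Tpm1 and the pericyte genes Art3, Atp13a5 and Vtn. The motifs were chosen after values were seen. TATAAA stood in Rgs4, Art3, Cald1, Pln and Vtn and in 13.6% of all windows. The letters of TATAAA can fall inside a CArG box and those of CATTCC can run into it, but the Myl9 window held neither. A match describes letters and not a bound site, and a missing match says only that these letters are not in the window.

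No pericyte gene passed. The abundant marker Rgs5 and the receptor gene Pdgfrb had small log2 fold changes of 0.11 and 0.08, and the surface protein genes Anpep and Mcam had negative ones of -0.91 and -0.54. Of 8 pericyte genes 7 were tested, with a median log2 fold change of -0.13. Rgs5, which encodes a regulator that shortens G protein signalling and is the most abundant pericyte marker here, stood at 76.2, 83.05, 81.8 and 80.7 CPM in the controls 1 to 4 and at 94.1, 77.7, 83.8 and 91.01 CPM in the knockouts 2 to 5. The ranges overlapped, and the log2 fold change was 0.11 with a 95% interval of -0.10 to 0.32. Pdgfrb, the receptor that keeps pericytes on the vessel, stood at 15.8, 11.4, 14.6 and 14.7 CPM in the controls and at 14.6, 15.9, 14.3 and 15.0 CPM in the knockouts. Every knockout value of Pdgfrb lay between the lowest control and 15.9 CPM, just above the highest control, and the 95% interval of its log2 fold change was -0.21 to 0.38. Vtn, which encodes the adhesive glycoprotein vitronectin, had means of 21.06 ± 1.98 CPM in the controls and 19.2 ± 2.46 CPM in the knockouts (SD, n = 4 each), with knockout 3 lowest at 15.6 CPM.

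Anpep, which encodes aminopeptidase N (CD13), showed the most negative log2 fold change of the 28 tested genes. It stood at 3.09, 2.45, 3.23 and 2.23 CPM in the controls and at 1.28, 1.22, 1.70 and 1.63 CPM in the knockouts, from 16 to 59 counts per library. All 4 knockouts lay below all 4 controls, a pattern that 7.65% of all tested genes had in that direction. Its log2 fold change was -0.91 ± 0.26 (SE) and did not pass (edgeR adjusted p = 0.0518). It passed in the authors' deposited table (log2 fold change -0.91, adjusted p = 0.0366) and in DESeq2 on the same counts (adjusted p = 0.0306). It also passed without control 4 (adjusted p = 0.0497) and without knockout 4 (0.0379). Over all 14 alternatives its adjusted p ran from 0.0306 to 0.131.

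Mcam encodes the adhesion molecule CD146 and was counted here with the pericyte genes, but which cells made its RNA was not tested. It stood at 13.8, 12.8, 9.90 and 10.2 CPM in the controls and at 7.81, 6.53, 10.5 and 7.26 CPM in the knockouts. Knockout 4 lay within the control range and the other 3 knockouts below it. Its log2 fold change was -0.54 ± 0.18 (adjusted p = 0.0895), and without knockout 4 it passed (-0.68, adjusted p = 0.0222). Atp13a5, a transport ATPase gene that marks brain pericytes, ran from 9.04 to 14.9 CPM in the controls and stood at 11.8, 7.06, 13.5 and 7.74 CPM in the knockouts. Knockouts 3 and 5 thus lay below every control and the other 2 within the control range (log2 fold change -0.30 ± 0.22). Art3, of the ADP-ribosyltransferase family, overlapped widely (0.936 to 3.19 CPM over all libraries). Higd1b was not tested, with at most 7 counts in any library.

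**Figure D2:**
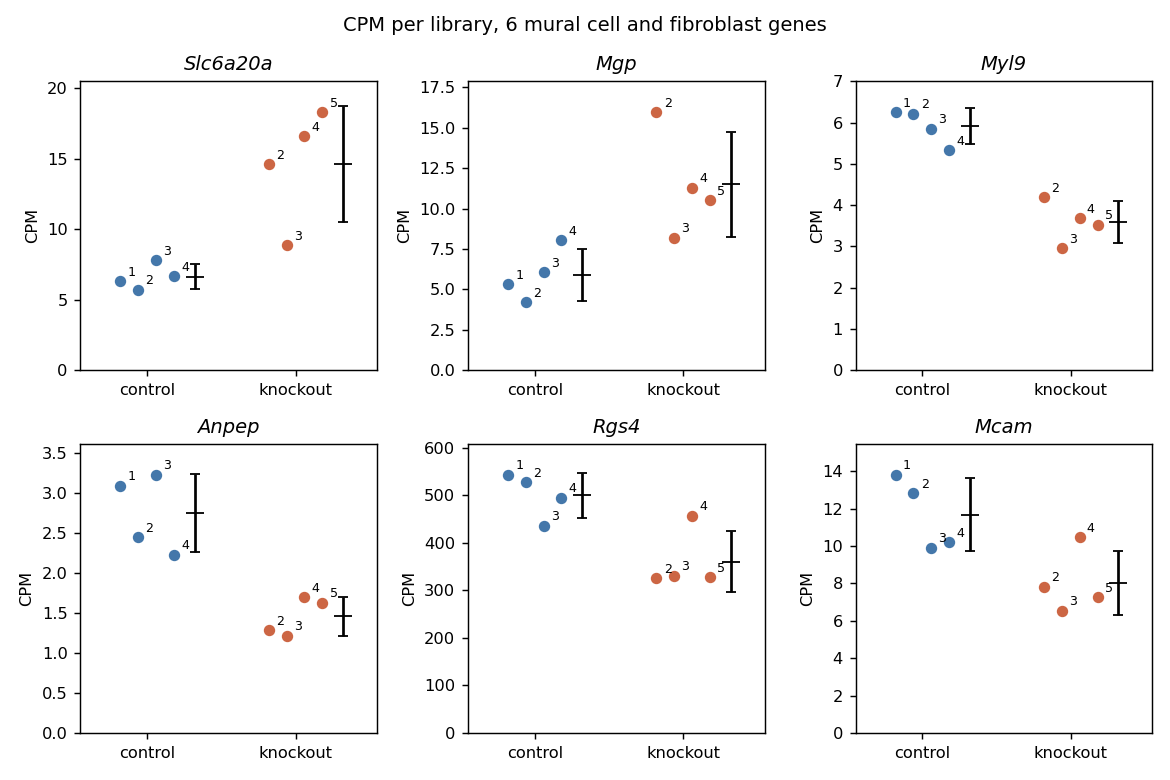
CPM (y axis) of Slc6a20a, Mgp, Myl9, Anpep, Rgs4 and Mcam in each control and knockout library (points, labelled with the library number), with the mean and SD of each group (bar). Knockouts lie above all controls for Slc6a20a and Mgp and below all controls for Myl9 and Anpep, while knockout 4 lies within the control range of Rgs4 and Mcam.

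Among genes of the smooth muscle contractile apparatus Myl9 alone passed, and it fell. Of 11 contractile genes 9 were tested, 1 fell, none rose and 8 did not pass. Over all tested genes 2.99% fell. All 9 had a negative log2 fold change, from -0.71 to -0.19 with a median of -0.56, beside 50.2% negative and a median of -0.0021 over all tested genes. Control 1 was the highest library for 5 of the 9, and without it the median was -0.24, with all 9 still negative. In each of the 9 the highest of the 8 libraries was a control. These genes share libraries and in part the cells that express them, although Cald1 and Tpm1 are also made elsewhere, so the 9 are not independent.

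Myl9 (chromosome 2, 156775420 to 156781658, GRCm38) encodes the regulatory light chain of smooth muscle and non-muscle myosin and carries the CArG box printed above. It stood at 6.26, 6.21, 5.85 and 5.33 CPM in the controls and at 4.20, 2.96, 3.69 and 3.53 CPM in the knockouts, from 39 to 107 counts per library. The groups did not overlap, a pattern that 7.65% of all tested genes had in that direction. Its log2 fold change was -0.71 ± 0.18 (SE, edgeR adjusted p = 0.0351), a drop in the mean from 5.91 ± 0.429 to 3.59 ± 0.509 CPM (SD, n = 4 each). It did not pass without control 1, 2 or 3 or without knockout 2, 3 or 5 (adjusted p 0.0896, 0.113, 0.0791, 0.0570, 0.0593 and 0.0999), with a log2 fold change between -0.80 and -0.62 in all 14 alternatives.

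The other tested contractile genes did not pass. Acta2, smooth muscle actin, stood at 3.60, 5.40, 4.71 and 2.83 CPM in the controls and at 3.56, 1.44, 3.16 and 2.51 CPM in the knockouts. Its groups overlapped, with knockout 3 lowest, and its log2 fold change of -0.62 had a 95% interval of -1.25 to 0.0030 (adjusted p = 0.195). Myh11, the smooth muscle myosin heavy chain, stood at 11.5, 12.4, 9.63 and 6.54 CPM in the controls and at 7.00, 7.59, 4.62 and 7.40 CPM in the knockouts. Control 4 lay below 3 of the 4 knockouts, and without control 4 Myh11 passed (log2 fold change -0.75, adjusted p = 0.0440, against -0.59 and 0.112 with all libraries). Control 4 is also the control with the high choroid plexus sum (190 CPM, most of it Ttr). It was the lowest control for Myh11, Acta2, Mylk, Myl9, Tpm1 and Cald1, but not for Tagln, Tpm2 and Lmod1. The part of uneven tissue content in the contractile values was not tested.

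Cald1, which encodes the actin-binding protein caldesmon and is also made outside muscle, stood at 67.7, 54.8, 42.6 and 33.3 CPM in the controls and at 36.0, 37.2, 23.1 and 33.6 CPM in the knockouts. Controls 1 to 3 lay above every knockout and control 4 did not. The log2 fold change of Cald1 was -0.61 ± 0.22 with all libraries (adjusted p = 0.105). It passed without control 4 (-0.76, adjusted p = 0.0355) and in the authors' deposited table (-0.61, adjusted p = 0.0459). The tropomyosin gene Tpm1, whose non-muscle forms are made by many brain cells, was the most abundant contractile gene, at 149 to 210 CPM in the controls and 117 to 188 CPM in the knockouts. Tpm2, a second tropomyosin gene, was at 10.9 CPM in control 1, at 5.25 to 5.52 CPM in the other controls and at 7.29, 6.08, 1.76 and 3.33 CPM in the knockouts. Knockouts 2 and 3 thus lay above 3 of the 4 controls. The log2 fold change of Tpm2 was -0.56 with all libraries and did not pass. Leaving out control 1 gave -0.24, knockout 4 gave -0.27 and knockout 2 gave -0.88, none of which passed.

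Mylk, the kinase that phosphorylates myosin light chains, overlapped between groups, with a log2 fold change of -0.19 and a 95% interval of -0.56 to 0.18. Tagln (transgelin, an actin-binding protein) and Lmod1 (leiomodin, an actin nucleator) stood near 1 CPM, at 1.36 ± 0.326 and 0.939 ± 0.453 CPM in the controls and at 1.16 ± 0.289 and 0.733 ± 0.0895 CPM in the knockouts (SD, n = 4 each). Cnn1 (calponin) and Mustn1 were not tested, with at most 8 and 10 counts in a library. The 9 contractile genes other than Tpm1 and Cald1 summed to 47.8, 45.01, 41.9 and 32.3 CPM in the controls and to 37.0, 28.3, 25.9 and 30.5 CPM in the knockouts. Their sum was lowest in knockout 4 and highest in control 1, and control 4 lay within the knockout range. The 8 pericyte genes summed to 141 to 149 CPM in the controls and to 128 to 152 CPM in the knockouts, where knockout 3 was lowest.

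**Figure D3:**
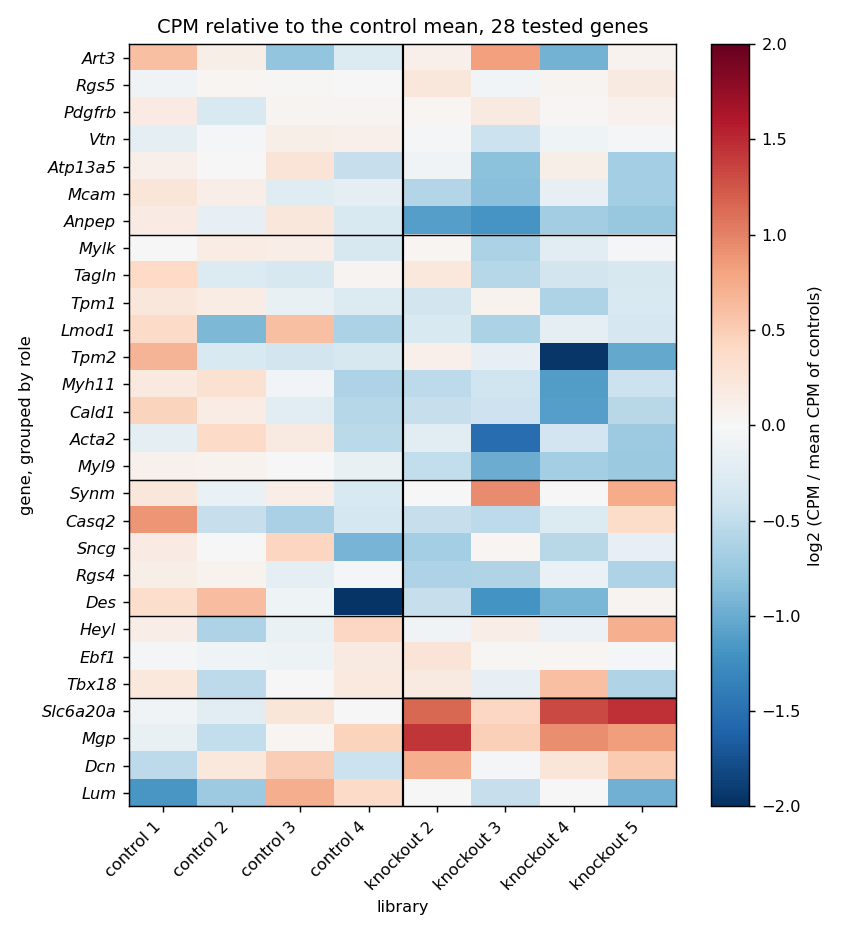
CPM of each of the 28 tested genes (rows, grouped by role) in each library (columns), as log2 of the ratio to the mean of the 4 controls, red above and blue below it, with colours capped at 2 in either direction. Myl9 is blue in all 4 knockouts, while Tpm2, Tagln and Mylk in knockout 2 and Tpm1 in knockout 3 lie above the control mean. Knockout 3 is lowest for Acta2 and Myl9 and knockout 4 for Tpm2, Myh11 and Cald1, and Slc6a20a and Mgp are red in all 4 knockouts.

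Genes of filaments, calcium stores and signalling in mural cells were mixed. Rgs4 encodes a regulator that, like Rgs5, shortens G protein signalling, and it is abundant in cortical neurons as well as in mural cells. It stood at 543, 527, 436 and 495 CPM in the controls and at 326, 331, 457 and 328 CPM in the knockouts. Knockouts 2, 3 and 5 lay close together below every control, and knockout 4 lay within the control range. Rgs4 fell by 0.47 on the log2 scale (SE 0.12, adjusted p = 0.0404). It passed in 6 of 14 alternatives, among them the fit without knockout 4 (-0.60, adjusted p = 0.00336). Upper-quartile scaling gave an adjusted p of 0.0525, and leaving out any other library gave 0.0529 to 0.130.

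Per kilobase of exon the control level of Rgs4 was 162 CPM, against 17.7 CPM for Rgs5 and 2.58 CPM for Pdgfrb. The 10 neuron markers summed to 9712 to 11199 CPM in the controls and 9229 to 11657 CPM in the knockouts, 1 of the 10 (Tubb3) was lower and none higher, and their part in the Rgs4 result was not tested. Synm, which encodes the intermediate filament protein synemin that astrocytes also make, stood at 60.8, 47.5, 57.2 and 42.2 CPM in the controls and at 51.4, 100.2, 51.6 and 86.8 CPM in the knockouts. Knockouts 3 and 5 lay above every control and knockouts 2 and 4 within the control range (log2 fold change 0.48 ± 0.23, adjusted p = 0.213). Des, the muscle filament desmin, was at 2.66, 3.20, 1.97 and 0.540 CPM in the controls and at 1.52, 0.911, 1.11 and 2.17 CPM in the knockouts, with control 4 lowest of all. Casq2, which stores calcium in the sarcoplasmic reticulum, and Sncg, which encodes gamma-synuclein and is also made by some neurons, overlapped between groups. Pln, which encodes phospholamban, an inhibitor of the calcium pump, was not tested, at 3 to 23 counts per library.

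Transcription factor genes of mural cells did not pass. The Notch target Heyl stood at 3.48 ± 1.01 CPM in the controls and 4.01 ± 1.15 CPM in the knockouts, the T-box gene Tbx18 at 3.41 ± 0.731 and 3.57 ± 1.24 CPM and Ebf1 at 8.95 ± 0.841 and 9.45 ± 0.843 CPM (SD, n = 4 each). Their ranges overlapped. The narrowest 95% interval of their log2 fold changes was that of Ebf1, from -0.23 to 0.39. The forkhead gene Foxs1 was not tested and had no count in controls 1, 2 and 4 and at most 3 counts elsewhere.

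Among 4 fibroblast genes 2 rose, none fell and 2 did not pass. Over all tested genes 3.44% rose. Slc6a20a (chromosome 9, 123634770 to 123678885), a sodium-dependent transporter of proline and related amino acids, stood at 6.33, 5.71, 7.82 and 6.68 CPM in the controls and at 14.6, 8.88, 16.6 and 18.3 CPM in the knockouts. The groups did not overlap, and knockout 3 lay nearest to the controls. Non-overlap with higher knockouts was found for 8.58% of all tested genes. Slc6a20a rose by 1.14 ± 0.21 on the log2 scale (adjusted p = 0.0116), and passed in all alternatives but those without control 2 or knockout 5 (adjusted p 0.0562 and 0.0558).

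Mgp (chromosome 6, 136872435 to 136875823), which encodes matrix Gla protein, an inhibitor of calcification made by fibroblasts, smooth muscle and some endothelial cells, stood at 5.32, 4.21, 6.07 and 8.03 CPM in the controls and at 16.0, 8.20, 11.3 and 10.5 CPM in the knockouts. The groups did not overlap, although knockout 3 was only just above control 4. Its log2 fold change was 0.96 ± 0.23 (adjusted p = 0.0305). Mgp did not pass without control 1, 2 or 3 or without knockout 2 or 5 (adjusted p 0.0913, 0.109, 0.0726, 0.0925 and 0.0794). In the authors' deposited table both genes passed, Slc6a20a with a log2 fold change of 1.14 and Mgp with 0.96.

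The proteoglycan genes of the same cells did not pass, and whether they differ from Slc6a20a and Mgp in response was not tested. Dcn (decorin) stood at 4.17, 6.97, 8.48 and 4.45 CPM in the controls and at 9.91, 5.92, 7.08 and 8.62 CPM in the knockouts, and its log2 fold change of 0.38 had a 95% interval of -0.14 to 0.91. Lum (lumican) stood at 0.647, 0.879, 2.41 and 1.89 CPM in the controls and at 1.46, 1.06, 1.46 and 0.747 CPM in the knockouts. Control 1 had the lowest level of Lum and controls 3 and 4 lay above every knockout (log2 fold change -0.30 ± 0.42).

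Some choroid plexus markers rose along with Slc6a20a and Mgp. Of the 7 choroid plexus and ependyma markers measured, Clic6, Kcne2 and Folr1 rose, none fell and 4 did not pass, and the median log2 fold change was 1.23. Ttr, the transthyretin gene that choroid plexus makes in bulk, was at 9.35, 8.54, 5.74 and 174 CPM in the controls and at 496, 351, 418 and 513 CPM in the knockouts (adjusted p = 0.183, named after its values were seen). Control 4, with the high Ttr, had 6.68 CPM of Slc6a20a, between the other controls, and 8.03 CPM of Mgp, the highest of the controls. Kcne2 had no count in control 2, and no other marker of the list was at 0 in a library. The part of choroid plexus RNA in both rises was not tested. Without control 4 the log2 fold changes were 1.14 for Slc6a20a and 1.14 for Mgp, and both passed. In that fit the choroid plexus sum was at most 24.2 CPM in every control. In every knockout it was at least 377 CPM, most of it Ttr. The fit therefore cannot separate choroid plexus content from the knockout.

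**Figure D4:**
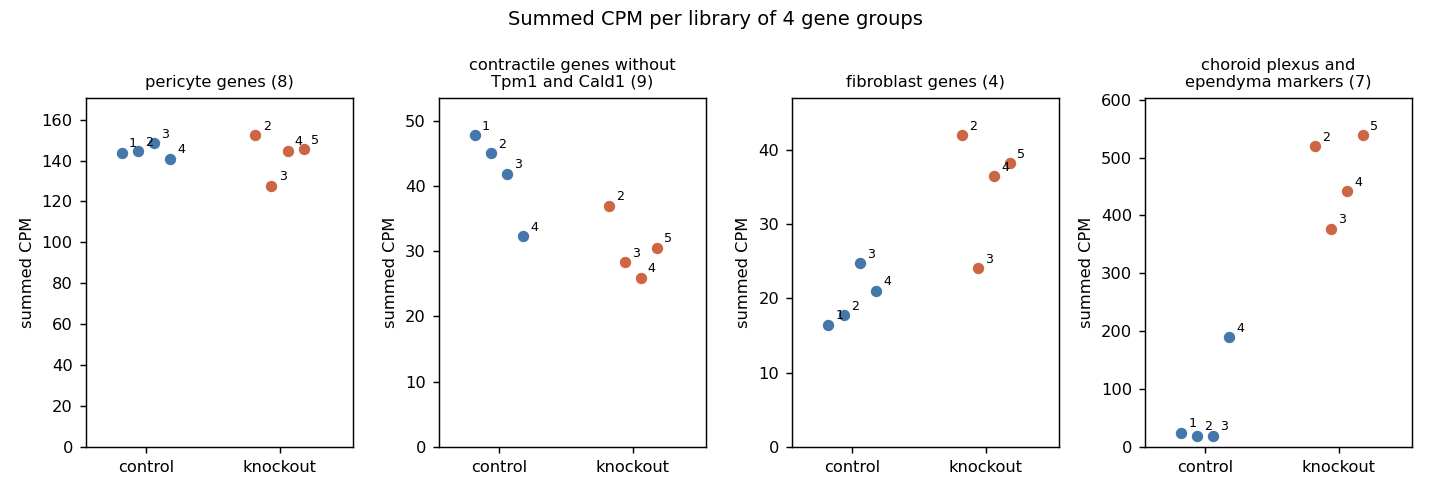
Summed CPM (y axis) of the pericyte genes, of the contractile genes other than Tpm1 and Cald1, of the fibroblast genes and of the choroid plexus and ependyma markers in each library (points, labelled with the library number). Pericyte sums overlap between groups. Contractile sums of controls 1 to 3 lie above every knockout and that of control 4 does not. Fibroblast sums are higher in knockouts 2, 4 and 5. The choroid plexus sum is 190 CPM in control 4, most of it Ttr, against at most 24.2 CPM in the other controls.

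Further genes of the same cells were counted from lists of other markers. Of 11 tested pericyte genes outside the 33 (Cspg4 and Notch3 among them) none passed, and their median log2 fold change was 0.19. The channel genes Kcnj8 and Abcc9, which together form the ATP-sensitive potassium channel of pericytes and were picked out after their values were seen, had log2 fold changes of 0.95 ± 0.34 and 0.50 ± 0.23 (adjusted p = 0.101 and 0.199). Of 16 further smooth muscle genes 1 fell and none rose. Their median log2 fold change was -0.05, negative for 10 and positive for 6 of the 16. Over all tested genes 2.99% fell and 50.2% had a negative log2 fold change. The gene that fell was Ppp1r12b, a targeting subunit of myosin phosphatase, which went from 166, 152, 146 and 141 CPM in the controls to 123, 115, 120 and 118 CPM in the knockouts (-0.35 ± 0.09, adjusted p = 0.0406). Srf, the factor that binds CArG boxes, had a log2 fold change of -0.40 ± 0.15 and did not pass (adjusted p = 0.121, picked after its value was seen). Of 19 further fibroblast genes none passed, with a median of -0.16.

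Mural cells are recruited and kept by signals exchanged with endothelium. Of 18 tested genes of mural cell recruitment 1 fell and none rose, with a median of -0.02. The growth factor gene Tgfb3 fell from 17.0, 16.3, 13.5 and 10.9 CPM in the controls to 8.05, 8.66, 9.72 and 10.4 CPM in the knockouts (-0.65 ± 0.17, adjusted p = 0.0389). Pdgfb, the endothelial ligand of the Pdgfrb receptor, picked after its value was seen, stood at 6.67 ± 0.781 CPM in the controls and 7.25 ± 0.554 CPM in the knockouts (SD, n = 4 each; log2 fold change 0.12, 95% interval -0.22 to 0.46). Among 12 endothelial markers 2 rose and 2 fell. Those that fell were Tek (-1.18 ± 0.21, adjusted p = 0.00999) and Itm2a (-0.76 ± 0.20, adjusted p = 0.0392). Those that rose were Ly6c1 (1.31 ± 0.24, adjusted p = 0.0117) and Cdh5. Among 7 arterial endothelial markers 2 fell, Efnb2 (-0.47 ± 0.10, adjusted p = 0.0168) and Gkn3. Cdh5, whose promoter drives the recombinase, rose by 0.98 ± 0.24 (adjusted p = 0.0377). Its groups overlapped, with knockout 4 at 11.1 CPM within the control range of 9.28 to 11.3 CPM and the other knockouts at 25.5, 16.8 and 27.4 CPM. Over all tested genes 3.44% rose and 2.99% fell. Of 4 venous markers 2 rose, of 10 astrocyte markers 2 rose and of 7 oligodendrocyte markers 1 rose and 1 fell. Of 4 border macrophage markers none passed. Of 7 microglia markers 2 rose and none fell, but 4 had a negative log2 fold change and the median was -0.42.

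Levels per kilobase of exon (GENCODE M21) order the genes by abundance. In controls Rgs4 came highest at 162 CPM per kilobase, then Tpm1 at 27.7, Rgs5 at 17.7, Vtn at 10.4 and Synm at 6.55 CPM per kilobase. Myl9 (5.09), Mgp (4.98) and Cald1 (4.12 CPM per kilobase) were next and lay close together. In knockouts Mgp, at 9.69 CPM per kilobase, lay next to Vtn (9.47) and Synm (9.14 CPM per kilobase), and Myl9 was at 3.09 CPM per kilobase. Cnn1 and Foxs1 were lowest in controls, at 0.0938 and 0.0313 CPM per kilobase.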

How the data were processed

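The deposited table holds raw read counts per gene for 4 control and 4 knockout cortex libraries. Per the submitters' processing notes the tools were FastQC, HISAT, HISAT2, featureCounts and DESeq2, without versions, and the build was GRCm38. The labelled library kit is a kit for ChIP sequencing, and the strand setting is not given in the sources used here. Per the file headers the authors' DESeq2 columns give the mean signal (mean of counts over size factors), the log2 fold change with its error, the Wald score and the p-value, unadjusted and adjusted. Of 29012 lines 280 repeats were removed. Column names show the group of a library but not which labelled sample it is, and the labels leave unsaid whether libraries come from separate mice. The spread behind the p-values is then that between libraries and may be technical. No pair within a group agreed within sampling noise (chi-square per degree of freedom 11.4 to 49.9).

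Genes were kept by filterByExpr (15564 of 28732), scaled with TMM and tested without covariates by edgeR (glmQLFit with robust = TRUE, glmQLFTest), and p-values were adjusted by Benjamini-Hochberg over all genes tested, with a threshold of 0.05. The 95% intervals use the fit's degrees of freedom. The procedure was also run on simulated counts that held no differences in tissue content, and the outcome of that run is not given here. Alternatives were DESeq2 size factors, upper-quartile factors, no filter, 1 CPM in at least 4 libraries, DESeq2, limma voom and leaving out each library. Names and positions are from GENCODE M21. The promoters are from RefSeq (GRCm38.p6).

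The 33 genes and the other lists were chosen with earlier results of these data known. All 33 are named, and from each other list up to 4 genes with the smallest p among those past the threshold could be named, with Map3k7 and Cdh5. Ttr, Srf, Pdgfb, Kcnj8, Abcc9, Cspg4 and Notch3 were added after their values were seen. Others were looked at in the same way and not described above. Among them the collagen genes Col1a1, Col1a2 and Col3a1 had log2 fold changes of -0.70, -0.39 and -0.83 and did not pass. Pdgfra and Apod, from the list of further fibroblast genes, had 0.32 and 1.15 and did not pass. Of the 8 choroid plexus and ependyma, 14 endothelial, 8 microglia, 6 border macrophage and 8 oligodendrocyte markers listed, 7, 13, 7, 5 and 7 were analysed here. Models ran in edgeR 4.0.16, DESeq2 1.42.0 and limma 3.58.1 under R 4.3.3, and tables and plots in pandas 2.3.3 and matplotlib 3.10.9 under Python 3.11.15.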

Additional observations from a re-analysis of the deposited data

Results flagged for a closer look

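In 6 cases a library stood apart from the other 3 of its group by Dixon's ratio for 4 values, which chance flags in about 1 of 20 groups, and 108 groups of 4 libraries were looked at. Rgs4 was at 457 CPM in knockout 4 and at 326 to 331 CPM in the other knockouts. Vtn was at 15.6 CPM in knockout 3, below 19.9 to 20.8 CPM in the others. Tpm2 was at 10.9 CPM and Casq2 at 2.23 CPM in control 1, above 5.25 to 5.52 CPM and 0.766 to 0.945 CPM in the other controls. Cnn1, which was not tested, was at 0.608 CPM in knockout 3 and at most at 0.0585 CPM in the others, which is 8 counts against 0 or 1. Gkn3, an arterial endothelial gene, was at 0.527 CPM in knockout 4 and at most at 0.0679 CPM in the other knockouts.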

How the results depend on the processing

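Without a filter 821 genes were higher and 745 lower in knockouts, against 535 and 466, and DESeq2 gave 967 and 857. Upper-quartile scaling left 1 of the 33 genes lower, Myl9, since Rgs4 did not pass. The same 4 genes passed with DESeq2 size factors, without a filter, with 1 CPM in 4 libraries and in limma voom, and DESeq2 added Anpep. Leaving out 1 library gave 93 to 1012 genes higher and 35 to 1043 lower, 0 to 2 of the 33 higher and 0 to 4 lower, and a median log2 fold change of -0.28 to -0.14 over those tested. The median of the 9 contractile genes then ran from -0.65 to -0.24. None of the 33 passed without control 2 or without knockout 5, and Slc6a20a passed in the other 6 of these fits. The 4 genes that passed kept their sign in all 14 alternatives. A sign changed in 6 genes that did not pass, each time on leaving out a library. Their log2 fold changes then ran from -0.011 to 0.13 for Pdgfrb, -0.16 to 0.40 for Art3, -0.39 to 0.30 for Casq2, -0.011 to 0.38 for Heyl, -0.15 to 0.24 for Tbx18 and -0.54 to 0.060 for Lum. The cause of these changes was not tested. No paired analysis was possible because the labels number the controls 1 to 4 and the knockouts 5 to 8. Genes near 1 CPM rest on few counts.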
